A study of Homo sapiens with 5 samples.

Results

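Tight junction genes were followed along a mixture series made from RNA of NCI-H1975 and HCC827, established human cell lines from lung adenocarcinoma. The 10 genes were taken by name. They are the claudins CLDN1, CLDN2, CLDN3, CLDN4, CLDN7, CLDN12 and CLDN18, occludin (OCLN), the scaffold protein ZO-1 (TJP1) and the adhesion molecule JAM-A (F11R), and they are 10 of the 61220 genes that had a listed transcript in GENCODE v44. All reads on the transcripts of a gene were summed. Both lines were grown separately in RPMI 1640 medium with fetal calf serum to near confluency, without any stated treatment, and were dissociated and frozen before extraction. NCI-H1975 RNA was labelled as carrying synthetic spike-in transcripts (sequins) of mix A, and HCC827 RNA those of mix B. The poly(A) RNAs were combined at 5 mass ratios of NCI-H1975 to HCC827, the pure RNAs (100:0 and 0:100) and the mixtures 75:25, 50:50 and 25:75, and sequenced as PCR-amplified cDNA on a nanopore PromethION flow cell. Each ratio had 1 library, and all libraries drew on 1 RNA preparation per line.

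Tight junctions seal the space between neighbouring epithelial cells near their apical side. Claudins span the membrane and polymerise into the strands that set which ions and solutes pass, occludin joins these strands, JAM-A sits beside them as an adhesion molecule of the immunoglobulin family, and ZO-1 ties the membrane proteins to actin. In lung, CLDN18 is best known from alveolar epithelium. CLDN3, CLDN4 and CLDN7 are also found in lung epithelium, and in many carcinomas.

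The libraries held 2932250 to 4058751 assigned reads. Levels are given as CPM, the read count scaled to a common depth of reads on genes, after TMM scaling, which adjusts for differences in RNA composition between libraries. Series of values run from the 100:0 library through the mixtures to the 0:100 library. Sequin reads fell along the series with the share of NCI-H1975 RNA, at 5475, 4678, 2830, 1269 and 0. The 0 sequin reads of the 0:100 library go against the label of mix B for HCC827 RNA. The read-weighted mean length of assigned transcripts fell along the series, at 2579, 2468, 2363, 2272 and 2180 bases. Epithelial markers were high throughout: EPCAM, KRT7, KRT8, KRT18, KRT19 and CDH1 summed to 5660 CPM at 100:0 and 16000 CPM at 0:100, and 5 of the 6 rose. Leukocyte markers summed to 1.51 to 9.40 CPM with PTPRC, CD3E and LYZ at 0 in every library, and endothelial markers summed to 2.13 to 4 CPM. Fibroblast markers summed to 188 CPM at 100:0 and 7.17 CPM at 0:100, with COL1A1 and COL1A2 falling and DCN at 0 in every library. The part of these collagen and keratin differences in the junction results was not tested.

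CLDN3, CLDN4, CLDN7 and OCLN rose as the share of HCC827 RNA grew, TJP1 fell, and CLDN1, CLDN12 and F11R did not pass the test. Of the 10 genes, 8 had enough reads to be tested (at least 10 reads in at least 2 libraries). Each gene's log2 level was regressed on the HCC827 fraction of the RNA with the edgeR quasi-likelihood test, with p-values adjusted by the Benjamini-Hochberg method over 13492 genes. A slope is the log2 change that the fit gives between pure NCI-H1975 and pure HCC827 RNA. Of all genes tested, 45.7% had an adjusted p-value under 0.05, with 23.5% rising and 22.3% falling, so 5 of 8 is not far from the background. The median slope of the 8 genes was 0.48 on the log2 scale, beside -0.03 for all genes tested. Because no ratio was replicated, the p-values cover only the scatter of these libraries about a trend, and in bulk RNA fewer expressing cells cannot be told apart from less RNA per cell.

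CLDN3, a barrier-forming claudin and the receptor of a Clostridium enterotoxin, showed the widest difference among the 8 genes. Its gene is a single exon on chromosome 7 (73768997 to 73770270, minus strand, GRCh38). The 5 libraries held 95, 428, 543, 497 and 697 CLDN3 reads, or 28.4, 101, 141, 176 and 263 CPM. Every step toward HCC827 raised the level, and the 0:100 library stood 9.26-fold above the 100:0 library (95% counting interval 7.46 to 11.6). The slope was 2.58 ± 0.31 (SE, 5 libraries), with an adjusted p-value of 3.67e-05. Without the 100:0 library the slope was 1.80 with an adjusted p-value of 1.58e-10. Of the 8 genes, only CLDN3 had pure libraries at least 4-fold apart, where 11% of 13488 genes were that far apart, 4.97% with HCC827 higher and 5.98% with HCC827 lower. At least 2-fold apart were 4 of the 8 genes, beside 34.6% of all genes.

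The bases just before the CLDN3 start site are shown because CLDN3 had the largest slope and because no exon of GENCODE v44 lies there (RefSeq, GRCh38.p14, chr7:73770271-73770520, minus strand, printed 5′ to 3′ in the direction of the gene). Capitals mark GGGCGG, the core of the GC box, on either strand.

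CLDN3 upstream: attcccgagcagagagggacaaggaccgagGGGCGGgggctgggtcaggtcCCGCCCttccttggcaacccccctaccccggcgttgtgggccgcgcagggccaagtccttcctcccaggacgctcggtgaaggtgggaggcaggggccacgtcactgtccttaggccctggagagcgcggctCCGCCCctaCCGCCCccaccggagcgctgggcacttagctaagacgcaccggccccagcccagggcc

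These 250 bases held 4 such matches, and the 300-base window that runs 50 bases past the start site held 6. At least 1 match was present in 45.0% of the 35116 windows of this length in the table, and 4 or more in 9.06%. A match of letters is a description and was not tied to a factor.

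CLDN4, another barrier-forming claudin that binds the same toxin, has its annotated gene boundary 29272 bases from CLDN3 on chromosome 7 (73799542 to 73832690, plus strand). The start sites of the transcripts CLDN3-201 and CLDN4-201 lie 60726 bases apart. The libraries held 1000, 1451, 1670, 1590 and 1638 CLDN4 reads, or 299, 341, 435, 564 and 618 CPM. The level rose at every step, but CLDN4 was already among the most abundant of the 8 genes at 100:0. The pure libraries stood 2.07-fold apart (1.9 to 2.2), and the slope was 1.13 ± 0.12 (SE, adjusted p = 1.48e-05, edgeR).

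Set against its neighbour in the same library, a measure that no scaling between libraries can change, CLDN3 gave 9.50 reads per 100 CLDN4 reads at 100:0 (95% interval 7.61 to 11.7). The ratio was 29.5, 32.5 and 31.3 in the 3 mixed libraries and 42.6 (38.9 to 46.5) at 0:100. The intervals of the pure libraries did not overlap, whereas the 3 mixtures lay within counting error of each other. The reads of these 2 neighbouring genes therefore rose by unequal amounts. Their transcripts differed in mean length (1274 and 2394 bases), and the part of length in their ratio was not tested.

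CLDN7, a claudin that also lies along the lateral membrane and binds EPCAM, rose as well. It is encoded on chromosome 17 (7259903 to 7263983, minus strand). Its libraries held 681, 1244, 1498, 1356 and 1603 reads, or 204, 292, 390, 481 and 605 CPM. The 5 levels were in order, and the counting intervals of neighbouring libraries did not overlap. The pure libraries stood 2.97-fold apart (2.71 to 3.25), with a slope of 1.54 ± 0.12 (SE, adjusted p = 3.45e-06, edgeR). EPCAM, its binding partner, had a slope of 0.02 ± 0.11 (SE) with an adjusted p-value of 0.883.

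OCLN, the first membrane protein of the tight junction to be described, was the scarcest of the rising genes. It spans chromosome 5 from 69492292 to 69558104 (plus strand). Its libraries held 44, 78, 92, 113 and 129 reads, or 13.2, 18.3, 24.0, 40.1 and 48.7 CPM. The level rose at each step, and the ratio of the pure libraries was 3.70-fold with a wide counting interval of 2.61 to 5.34. The slope was 1.96 ± 0.22 (SE, adjusted p = 2.22e-05, edgeR).

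TJP1, the ZO-1 scaffold, ran the other way. It lies on chromosome 15 (29699367 to 29968915, minus strand). Its libraries held 293, 305, 275, 174 and 158 reads, or 87.6, 71.7, 71.6, 61.7 and 59.6 CPM. The fall was small: the 100:0 library was 1.47-fold above the 0:100 library (1.21 to 1.79), and the largest single step lay between 100:0 and 75:25. The slope was -0.53 ± 0.15 (SE, adjusted p = 0.00936, edgeR). The call was lost without the 100:0 library (-0.39, adjusted p = 0.158), in the comparison of the 2 libraries rich in NCI-H1975 with the 2 rich in HCC827 (-0.39, adjusted p = 0.134), and when the trend of expression on transcript length was taken out of each library (-0.24, adjusted p = 0.216). TJP1 transcripts had a mean length of 6651 bases, the longest of the 8 genes.

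The remaining 3 tested genes had negative slopes that did not pass the threshold. F11R, the JAM-A adhesion molecule, is on chromosome 1 (160995211 to 161021343, minus strand) and held 207, 191, 189, 195 and 176 CPM from 466 to 812 reads. Its slope was -0.18 ± 0.12 (SE, adjusted p = 0.237, edgeR), and it was 0.0058 (adjusted p = 0.973) with the length trend removed. A gene that overlaps F11R on the same strand, ENSG00000270149, had 24 to 63 reads per library. CLDN12, a claudin that lacks the usual PDZ-binding tail, is on chromosome 7 (90383721 to 90513402, plus strand) and held 61.3, 51.0, 51.6, 48.2 and 44.5 CPM from 118 to 217 reads. Its slope was -0.40 ± 0.16 (SE, adjusted p = 0.0597, edgeR), just outside the threshold, and it passed when genes had to reach 10 reads in every library (-0.46, adjusted p = 0.0345). CLDN1, a barrier-forming claudin known from skin, is on chromosome 3 (190305707 to 190322446, minus strand) and held 21.5, 19.7, 23.2, 18.8 and 14.3 CPM from 38 to 89 reads. Its slope was -0.44 ± 0.28 (SE, adjusted p = 0.214, edgeR), and its level had no order over the series.

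CLDN2 and CLDN18 were too scarce to test. CLDN2, a claudin that forms cation pores, had 0, 1, 0, 1 and 0 reads. CLDN18, the alveolar and gastric claudin, had 0 reads in all 5 libraries. The limit used for a count of 0 is 3 reads, a one-sided bound on counting error only, which is 0.705 to 1.13 CPM in these libraries. It does not apply to the libraries in which CLDN2 had 1 read.

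**Figure D1:**
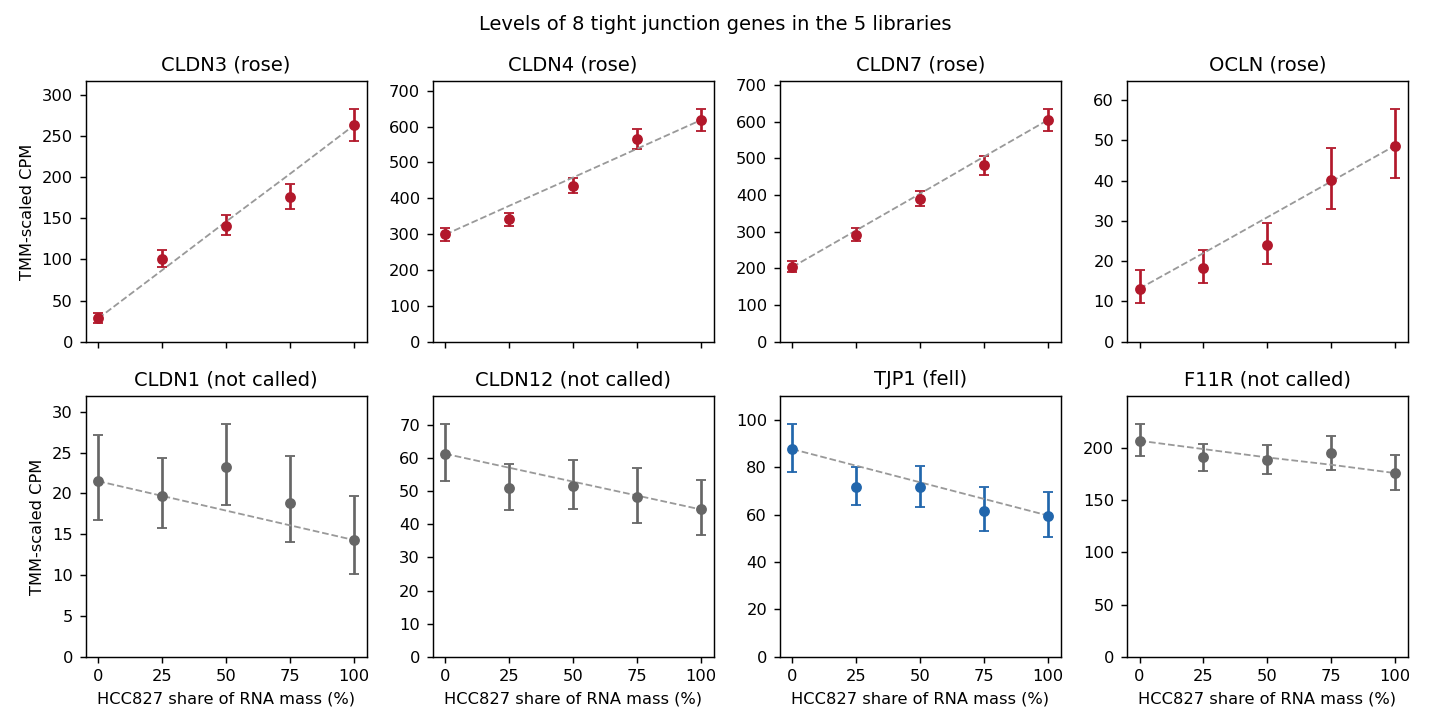
TMM-scaled CPM (vertical axes, each starting at 0) of the 8 tested genes against the HCC827 share of RNA mass in percent. Points are single libraries, bars are exact 95% Poisson intervals of the reads, and the dashed line joins the pure libraries; CLDN3 climbs from 28.4 to 263 CPM while F11R stays between 176 and 207 CPM.

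Levels in the mixtures were compared with the straight line between the pure libraries, since a mixture of 2 RNAs is linear in its parts before scaling. Of the 24 inner values of the 8 genes, 17 had a counting interval that held the line, 2 lay above it and 5 below. CLDN3 lay above the line at 75:25 (101 CPM against 87.0) and below it at 25:75 (176 against 204). CLDN4 lay below it at 75:25 (341 against 379) and at 50:50 (435 against 458). CLDN7 followed the line in all 3 mixtures, at 22.1%, 46.5% and 69.1% of the way from the 100:0 to the 0:100 level. OCLN reached 14.6%, 30.4% and 75.8% of the way, and only its 50:50 interval missed the line. The line was taken as exact, without the counting error of the pure libraries. It was drawn on TMM-scaled values, whose scaling factors ran from 1.16 at 100:0 to 0.868 at 0:100. The part of this scaling in the departures from the line was not tested. Order held for 5 of the 8 genes (CLDN3, CLDN4, CLDN7, OCLN and TJP1) over the 5 libraries, beside 28.5% of all genes tested.

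Scaling shifted the slopes of all 8 genes downward together. With library totals in place of TMM, the median slope of all genes moved to -0.45, and all 8 genes passed the threshold, 4 up and 4 down. Taken relative to that median, the slopes were 2.62 for CLDN3, 2.00 for OCLN, 1.57 for CLDN7 and 1.17 for CLDN4. TJP1 then stood at -0.50, CLDN1 at -0.40, CLDN12 at -0.37 and F11R at -0.14. Closeness to the TMM values was largely fixed in advance, because TMM had already put the median slope at -0.03. CLDN3, CLDN4, CLDN7 and OCLN rose in all 14 alternatives run, with a highest adjusted p-value of 0.0494 for CLDN3 and 0.0352 for each of the others, all in the comparison of 2 libraries against 2. Leaving out the 0:100 library kept all 5 calls. Mean transcript length was 1274 bases for CLDN3, 1597 for CLDN7 and 2394 for CLDN4, the shortest of the 8 genes. It was 5923 bases for OCLN. With the length trend removed the same 4 genes rose.

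**Figure D2:**
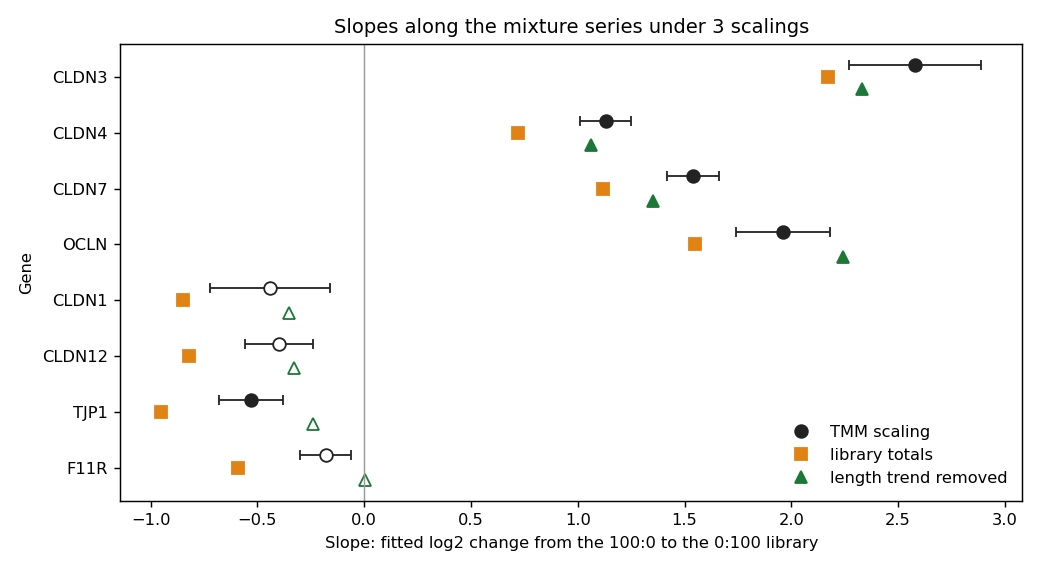
Slopes of the 8 tested genes (horizontal axis, log2 change between the pure RNAs) under TMM scaling with SE bars, under library totals and with the length trend removed. Filled symbols passed an adjusted p-value of 0.05; CLDN3, CLDN4, CLDN7 and OCLN are filled and positive under all 3, whereas TJP1 is hollow at -0.24 once the length trend is removed and F11R moves from -0.18 to 0.0058.

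To compare genes with each other, TMM-scaled CPM was used without division by transcript length. At 100:0 CLDN4 led at 299, then F11R at 207 and CLDN7 at 204, whose counting intervals overlapped each other. TJP1 at 87.6, CLDN12 at 61.3, CLDN3 at 28.4, CLDN1 at 21.5 and OCLN at 13.2 followed. The CLDN1 interval overlapped those of CLDN3 and OCLN. At 0:100 CLDN4 at 618 and CLDN7 at 605 led with overlapping intervals, then CLDN3 at 263 and F11R at 176. TJP1 at 59.6, OCLN at 48.7 and CLDN12 at 44.5 overlapped each other, and CLDN1 was lowest at 14.3. CLDN3 thus stood below F11R, TJP1 and CLDN12 at 100:0 and above them at 0:100. The part of transcript length in these orders was not tested.

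The make-up of claudin RNA changed accordingly. Over all 24 claudin genes in the tables, CLDN3 took 4.44% of claudin reads at 100:0 (95% Wilson interval 3.64 to 5.39), then 12.1%, 13.3% and 13.4%, and 16.8% at 0:100 (15.7 to 18). CLDN4 took the largest share in every library, at 46.7% (44.6 to 48.8) in the 100:0 and 39.5% (38.0 to 41.0) in the 0:100 library. CLDN7 went from 31.8% (29.9 to 33.8) to 38.7% (37.2 to 40.1), where its interval overlapped that of CLDN4. CLDN12 shrank from 9.57% (8.40 to 10.9) to 2.85% (2.38 to 3.40), and CLDN1 from 3.36% (2.68 to 4.21) to 0.916% (0.668 to 1.26). CLDN3, CLDN4 and CLDN7 together held 82.9% of claudin reads at 100:0 and 95% at 0:100. These shares come from within 1 library each and are not altered by scaling between libraries. They are parts of a total that grew from 2142 to 4147 claudin reads, and the slopes of CLDN12 and CLDN1 themselves did not pass the threshold. Mean transcript length was 1274 bases for CLDN3, 3267 for CLDN12 and 3428 for CLDN1, and the part of length in the shares was not tested.

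**Figure D3:**
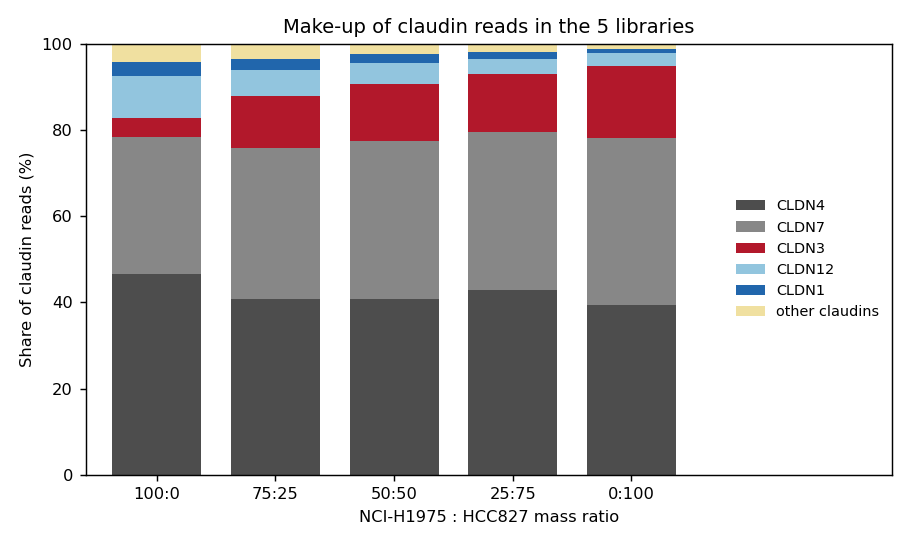
Share of claudin reads in percent (vertical axis, from 0 to 100) held by CLDN4, CLDN7, CLDN3, CLDN12, CLDN1 and the other claudins in each of the 5 libraries. The CLDN3 band widens from 4.44% at 100:0 to 16.8% at 0:100 while the CLDN12 and CLDN1 bands narrow.

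The balance between occludin and its scaffold changed in the same way. OCLN gave 15.0 reads per 100 TJP1 reads at 100:0 (95% interval 10.7 to 20.7), 25.6, 33.5 and 64.9 in the mixtures, and 81.6 (64.2 to 104) at 0:100. CLDN7 gave 98.3 reads per 100 F11R reads at 100:0 (88.3 to 109), 153, 207 and 247 in the mixtures, and 344 (310 to 382) at 0:100. Both ratios rose at every step. CLDN7 and F11R transcripts differed in mean length (1597 and 4700 bases), and the part of length in their ratio was not tested.

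The deposited estimates also gave counts for the transcripts behind these sums. Of 46 transcripts of the 10 genes with reads, 23 could be tested, and 10 rose, 1 fell and 12 did not pass (edgeR slope test, adjusted over 31758 transcripts, of which 33.6% were called). All tested transcripts of CLDN3, CLDN4, CLDN7 and OCLN rose. CLDN4 had 3 transcripts, CLDN4-201, CLDN4-202 and CLDN4-203, which encode the same 209 residues. CLDN4-201, a single-exon transcript, held 76.1% of CLDN4 reads at 100:0 and 75.4% at 0:100. The other two start further upstream, and their slopes of 1.13 and 1.07 were close to the 1.06 of CLDN4-201. F11R reads were divided between F11R-202 with 47.9% and F11R-206 with 51.9% at 100:0, and 52.8% and 47.2% at 0:100, with overlapping intervals. CLDN12 reads were spread over CLDN12-201, CLDN12-203 and CLDN12-213, which encode the same 244 residues and took 28.8%, 26.3% and 32.2% at 100:0. CLDN1-201 held at least 98.1% of CLDN1 reads in every library.

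TJP1-202 was the falling transcript, with 44, 29, 32, 19 and 13 reads, a slope of -1.24 ± 0.40 (SE) and an adjusted p-value of 0.0234. The call was lost without the 100:0 library (-0.64, adjusted p = 0.477, edgeR), without the 0:100 library (-1.19, adjusted p = 0.127, edgeR) and with DESeq2 (-1.23, adjusted p = 0.153). In GENCODE v44 it starts at position 29968915 of chromosome 15, far upstream of TJP1-201, TJP1-204, TJP1-209 and TJP1-211, which start between 29821548 and 29822503. Its share of TJP1 reads was 15.0% (95% Wilson interval 11.4 to 19.6) at 100:0 and 8.23% (4.87 to 13.6) at 0:100, with overlapping intervals. The other named TJP1 transcripts had slopes of -0.39 to -0.68 and did not pass.

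Transcript shares within a gene were tested with diffSpliceDGE of edgeR for the 6 genes that had at least 2 tested transcripts. By edgeR's diffSpliceDGE 0 of the 6 genes were called, with an adjusted p-value of 1 for each, beside 0.402% of 7455 genes. The count at an unadjusted p-value under 0.05 was 0 as well, both by edgeR's Simes method, where F11R had the smallest p-value at 0.61, and by its gene-level F test, where the smallest was 0.416. This does not show that usage was equal, and the intervals of the shares give the differences that remain possible. In simulated data the test found only 22 of 100 genes given a 4-fold change in 1 transcript.

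**Figure D4:**
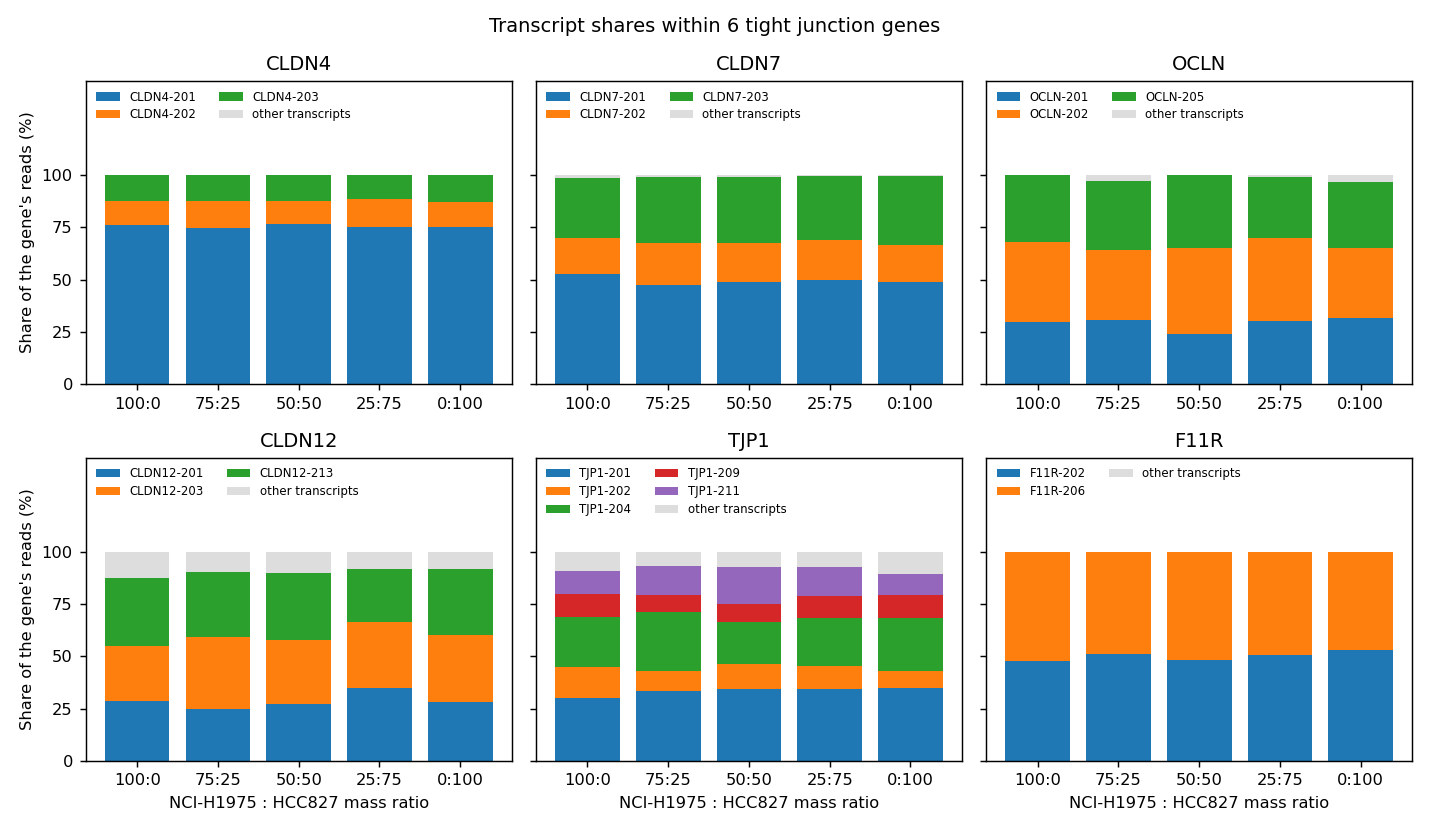
Share of each gene's reads in percent (vertical axes) held by its named transcripts in the 5 libraries, for the 6 genes with at least 2 tested transcripts. CLDN4-201 holds 76.1% and 75.4% in the pure libraries, whereas TJP1-202 narrows from 15.0% to 8.23%.

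The use of 3 internal coding exons that some named transcripts hold and others skip was counted over the named transcripts. The named transcripts of TJP1 and F11R also differ in coding sequence elsewhere, for example F11R-202 with 299 and F11R-206 with 279 residues, and those differences were not counted. The first is a 240-base exon of TJP1, known as the alpha motif of ZO-1, which is shown because its presence separates the isoforms ZO-1 alpha+ and alpha- (GRCh38, chr15:29719777-29720016, minus strand). The second is an 85-base exon of CLDN7, shown because the transcript that skips it, CLDN7-203, has a coding sequence for 145 residues in place of 211 (GRCh38, chr17:7260642-7260726, minus strand). Capitals mark the first and last 4 bases, which meet the neighbouring exons.

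TJP1 exon: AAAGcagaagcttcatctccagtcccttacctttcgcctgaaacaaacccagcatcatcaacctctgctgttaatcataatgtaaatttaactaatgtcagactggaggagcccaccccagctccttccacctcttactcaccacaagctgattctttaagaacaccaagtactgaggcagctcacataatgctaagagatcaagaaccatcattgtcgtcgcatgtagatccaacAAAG
CLDN7 exon: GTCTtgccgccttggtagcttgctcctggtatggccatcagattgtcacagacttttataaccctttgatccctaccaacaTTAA

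Shares here are of the reads assigned to the named transcripts. Transcripts with the TJP1 exon took 61.7% (95% Wilson interval 55.7 to 67.3) at 100:0. They took 60.9%, 68.6% and 64.0% in the mixtures and 59.6% (51.3 to 67.3) at 0:100. Both forms were assigned reads in both pure libraries, whose intervals overlapped. The CLDN7 transcript without its exon took 29.3% (26.0 to 32.9) at 100:0, 31.9%, 32.0% and 30.5% in the mixtures, and 32.8% (30.5 to 35.2) at 0:100. A 679-base coding exon of OCLN (chr5:69509141-69509819, plus strand) was skipped by OCLN-205, which codes for 271 residues in place of 522. That form took 31.8% (20 to 46.6) of reads at 100:0 and 32.8% (25.2 to 41.4) at 0:100. The rule by which a read matching several transcripts was assigned is not given in the sources used here, so these shares are those of the deposited estimates. Single reads were not checked for these exons, so the presence of each form in each line was not tested.

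The promoter windows of the genes were searched for the E-box CACCTG on either strand, because Snail and ZEB proteins are known to bind such E-boxes in junction genes. Of the 10 genes, 9 had a window in the RefSeq table (250 bases before to 50 after a start site, GRCh38.p14), with 16 windows in all. CACCTG was found in 6 windows of 5 genes (CLDN3, CLDN7, CLDN18, OCLN and TJP1), beside 20.6% of all 35116 windows. The window of the main CLDN7 start site held 5 matches, where 0.168% of all windows held 4 or more. The sites below are 30-base or shorter stretches with CACCTG or its reverse complement CAGGTG in capitals, on the strand of the gene, and they were chosen to show 1 site for each called gene that had a match and a further one for CLDN7. The second CLDN7 stretch also holds the next match downstream, in lower case.

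CLDN3 (chr7:73770221-73770246): caaagccacaggCAGGTGcaggcgca
CLDN7 (chr17:7262635-7262664): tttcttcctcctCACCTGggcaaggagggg
CLDN7 (chr17:7262481-7262510): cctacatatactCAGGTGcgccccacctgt
OCLN (chr5:69492645-69492674): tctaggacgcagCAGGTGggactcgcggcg
TJP1 (chr15:29969120-29969149): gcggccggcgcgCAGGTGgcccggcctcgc

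The CLDN3, CLDN7 and OCLN stretches overlap noncoding parts of exons of these genes, and the TJP1 stretch overlaps no exon. The CLDN4 window, at the start of CLDN4-201, held no match. Whether these matches bear on the levels was not tested.

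The transcription factors that are known to act on such promoters were counted from a list of 9. Of the 7 tested, 2 rose, 3 fell and 2 did not pass, with a median slope of 0.09. The 3 that fell are the repressors SNAI1, SNAI2 and ZEB1. SNAI1 had 140, 126, 101, 41 and 9 reads and a slope of -2.53 ± 0.40 (SE, adjusted p = 0.000229, edgeR), and SNAI2 had 63, 54, 38, 16 and 14 reads with a slope of -1.96. ZEB1 had 31, 20, 23, 7 and 1 reads and a slope of -2.70 ± 0.70 (SE, adjusted p = 0.00686, edgeR). Its call was lost without the 0:100 library (-1.94, adjusted p = 0.0652) and in the comparison of 2 libraries against 2 (-2.21, adjusted p = 0.071). OVOL1 and OVOL2, factors of epithelial identity, rose: OVOL1 had 6, 8, 19, 25 and 32 reads and a slope of 3.07 ± 0.52 (SE, adjusted p = 0.000422, edgeR). GRHL1 and GRHL2, activators of several junction genes, did not pass, and GRHL2 held 22.8 to 25.8 CPM in all 5 libraries. These factors and the junction genes were measured in the same 5 libraries, and a link between them was not tested.

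Other proteins of the junction were counted from further lists, all chosen with earlier results of these data known. Over 5 lists with the factors included, 63 genes were listed and 46 tested, of which 21 rose, 10 fell and 15 did not pass, beside 23.5% rising and 22.3% falling among all genes tested. The counts of each list are to be read against these same shares. Among 9 other membrane proteins of the junction, 6 were tested and 5 rose (MARVELD2, CRB3, LSR, CXADR and ILDR1), with a median slope of 1.25. ILDR1, a protein of tricellular contacts, had the largest slope at 3.50 ± 0.76 (SE, adjusted p = 0.00237, edgeR) from 3, 3, 6, 12 and 17 reads, and it fell under the read filter when either the 25:75 or the 0:100 library was left out. LSR, its relative at the same contacts, rose as well, at 101, 126, 171, 234 and 253 CPM. MARVELD2, also called tricellulin, had a slope of 0.59 that lost its call in 5 of 13 alternatives. These were library totals (0.18, adjusted p = 0.449), the DESeq2 test (0.61, adjusted p = 0.0579), 2 libraries against 2 (0.37, adjusted p = 0.229), and leaving out the 100:0 library (0.34, adjusted p = 0.283) or the 0:100 library (0.59, adjusted p = 0.115).

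All 18 plaque and polarity proteins on their list were tested, and 9 rose, 3 fell and 6 did not pass, with a median slope of 0.85. TJP3, the ZO-3 scaffold and a relative of TJP1, rose from 29 to 91, 134, 139 and 205 reads, with a slope of 2.78 ± 0.24 (SE, adjusted p = 4.2e-06, edgeR). ZO-3 RNA and ZO-1 RNA thus moved in opposite directions. PRKCI, an atypical protein kinase C of the polarity complex, had the most negative slope at -0.84 ± 0.27 (SE, adjusted p = 0.0218, edgeR). That call was lost without the 75:25, the 25:75 or the 0:100 library, where the adjusted p-values were 0.0708, 0.0692 and 0.286. The comparison of 2 libraries against 2 lost it as well (-0.72, adjusted p = 0.065).

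Of 17 other claudins, 8 had no reads in any library and 5 were tested. CLDN11 fell, with 26, 21, 18, 4 and 1 reads and a slope of -3.03 ± 0.71 (SE, adjusted p = 0.00377, edgeR). CLDN9 rose with a slope of 1.37 ± 0.52 (SE, adjusted p = 0.0449, edgeR) from 8 to 26 reads, and that call was lost in 9 of 12 alternatives, among them leaving out the 100:0, 75:25, 50:50 or 25:75 library. All other claudins together held 20 to 29.6 CPM per library. Among 10 adherens junction proteins, which hold cells together just below the tight junction, 4 rose, 3 fell and 3 did not pass, with a median slope of 0.30. CTNNA1, alpha-catenin, had the largest slope at 0.98 ± 0.13 (SE, adjusted p = 6.35e-05, edgeR), and NECTIN1 the most negative at -1.94 ± 0.32 (SE, adjusted p = 0.000327, edgeR). The NECTIN1 call was lost in the comparison of 2 libraries against 2 (-1.39, adjusted p = 0.0589).

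**Figure D5:**
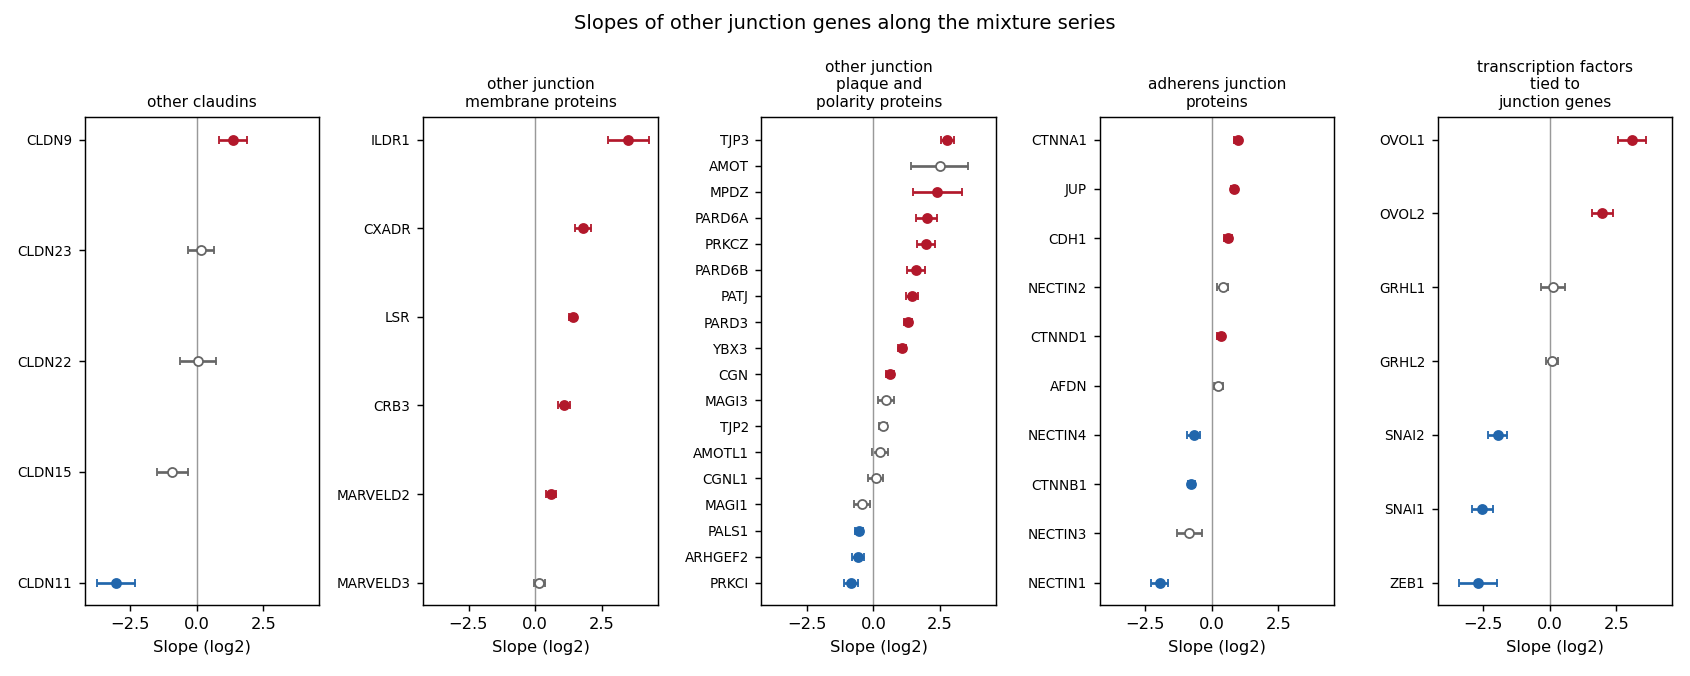
Slopes with SE bars (horizontal axes, log2 change between the pure RNAs) of the tested genes on the 5 other lists. Filled symbols passed an adjusted p-value of 0.05; 5 of 6 other membrane proteins are filled and positive, and the factors divide into OVOL1 and OVOL2 above 0 and SNAI1, SNAI2 and ZEB1 below.

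The genes whose profile over the 5 libraries was most like that of CLDN3 and TJP1 were found by the root mean square difference of centred log2 CPM. For CLDN3 they were CDT1, a DNA replication licensing factor, at 0.0704, TBK1, a kinase of innate immune signalling, at 0.0818 and TSPAN1, a tetraspanin, at 0.0873, and 57 genes lay within 0.2. For TJP1 they were CHP1, MED6 and ULK2, at 0.0187, 0.0258 and 0.0271, and 2635 genes lay within 0.2. Because profiles were centred, a shallow profile such as that of TJP1 also lies close to genes that hardly moved, so the 2 counts say nothing about how common a fall or a rise was.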

How the data were processed

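The data are 5 libraries of PCR-amplified nanopore cDNA, 1 for each mass ratio of NCI-H1975 and HCC827 RNA. The authors deposited 1 table per library with estimated counts (expected counts) of reads per transcript, unscaled; 2 values were not whole and were rounded. The submitters' processing notes name minimap2 2.24, Salmon 1.9.0 and GRCh38, without roles or settings, and the annotation release is not given in the sources used here. Identifiers listed a second time (161) were summed. GENCODE v44 matched 224076 of 227751 human transcripts, with 98.6% of human reads. Start sites, exons and coding lengths were taken from GENCODE v44. The deposited lengths of CLDN4-201, TJP1-202 and TJP1-211 were 1831, 6747 and 6977 bases, against 1695, 7022 and 7190 there. Whether counting used strand is not given in the sources used here.

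Slopes on the HCC827 fraction were tested with edgeR 4.0.16 (quasi-likelihood, TMM, R 4.3.3), for features with at least 10 reads in at least 2 libraries, adjusted by Benjamini-Hochberg at 0.05. SEs were derived from each slope and its F statistic (slope over root F). A mixture is curved on the log2 scale, so a slope can differ from the log2 ratio of the pure libraries, most of all for genes nearly absent from 1 line. Ratios of the pure libraries have exact binomial intervals, levels exact Poisson intervals and shares Wilson intervals, all at 95%; without molecular identifiers they cover counting error only. Depth was 2882757 to 3996101 reads on genes per library. Alternatives used limma 3.58.1, DESeq2 1.42.0, other scalings and filters, and each library left out; the length adjustment was added after the data were seen. On simulated data the slope test recovered 48 of 100 genes changed 2-fold and 86 of 100 changed 4-fold, with 9 false calls. The isoform usage test recovered 22 of 100 genes given a 4-fold change in 1 transcript, with 0 false calls.

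All 10 genes were named. Transcripts were named at 10% of a gene's reads in a library with at least 20 of them, and from each other list the called genes with the most positive and most negative slopes and those a result turned on. The 3 most alike genes were named for the called genes with the largest and smallest slopes. MARVELD2, LSR, CRB3, CXADR, SNAI1, SNAI2, OVOL2, GRHL1 and GRHL2 were chosen after their values were seen. Members and lists were chosen with earlier results of these data known.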

Additional observations from a re-analysis of the deposited data

How the results depend on the processing

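Of the 10 genes, 5 were called (4 rose, 1 fell), and between 4 and 5 when each library was left out in turn. With library totals as the scaling, 8 were called (4 rose, 4 fell), while the median slope of all genes moved from -0.03 to -0.45 and the share of calls that rose from 51.3% to 26.0%. Under that scaling 17 transcripts of these genes were called in place of 11 (10 rose, 7 fell), and the count was 10 to 11 when a library was left out. Among the other listed genes 31 were called, 24 to 29 with a library left out and 12 in the comparison of 2 libraries against 2, which called 2291 genes in all in place of 6172 and used 4 libraries. At 2-fold in place of 4-fold, 4 of the genes differed between the pure libraries, beside 34.6% of all genes. The F11R slope turned from -0.18 to 0.0058 (adjusted p = 0.973) with the length trend removed, and the cause was not tested. Isoform usage was called for 0 of the 6 genes in every alternative run (0 to 0 with a library left out). Only 4 genes were in order when only protein-coding transcripts were summed, since TJP1 was not. No paired analysis was possible because each ratio had 1 library. Precision is limited by depth for OCLN and CLDN1, whose libraries held 38 to 129 reads, and by the absence of replicates for all genes.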
